A study of Capra hircus with 3 samples.

Results

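The collagen chains are described here in goat (Capra hircus) longissimus dorsi, a large back muscle, at 3 ages after birth. An entry of the deposited expression table was taken as a collagen chain where its product text named a collagen type and an alpha chain, entries described as chain-like included. This gave 51 of 24689 entries, 7 of them chain-like, which together covered 28 collagen types. The text of 3 entries, COL3A1, COL1A2 and COL15A1, is written without the comma of the other entries, and they were counted as chains. One matching entry, the ceramide transporter COL4A3BP, is named for binding a collagen, is no collagen chain and was left out. Each age was measured in 1 library of total RNA. These are called kid for animals of 2 months, youth for 9 months and adult for 24 months, as in the labels. The sources used here do not give breed, sex, treatment or whether 1 animal or a pool went into a library. There was no replicate, so no test between stages was run and every difference below describes these libraries.

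Collagens are secreted proteins whose chains wind around each other in a rope-like helix. Fibrillar collagens, mainly types I and III in muscle, form the fibres of the connective tissue around fibres, bundles and whole muscle, and they carry its tensile strength. Type IV forms the network of the basement membrane that coats each muscle fibre and each capillary, and type VI forms beaded filaments that join this membrane to the fibrils outside it. The fibril-associated collagens (FACIT) sit on the surface of fibrils. In muscle most of these chains are made by fibroblast-like cells rather than by the muscle fibres. The classes below are fibrillar (types I, II, III, V and XI), basement membrane (IV, XV and XVIII), type VI and FACIT (IX, XII, XIV and XVI). All other types were grouped together. Among them are the fibril-forming types XXIV and XXVII and the fibril-associated types XIX, XX, XXI and XXII.

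Expression was given as FPKM, fragments scaled to entry length and to the mapped total, from totals of 15829474 reads in kid, 14920689 in youth and 18399385 in adult. Whole reads were recovered from the values for 48 of the 51 chains. Each ratio between libraries below carries an exact 95% interval of these reads, which covers counting error only. The libraries held the transcripts of skeletal muscle, with a summed level of 49540 to 67760 FPKM for 7 muscle fibre markers. The protocol label names mammary tissue, whereas 6 of 8 mammary epithelium markers, the caseins and LALBA among them, were listed at 0 in all 3 libraries. The RNA came from whole muscle, so fewer cells of a type and less RNA per cell cannot be told apart in any value below.

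The collagen chains summed to 1155, 1595 and 999 FPKM in kid, youth and adult, which was 0.219%, 0.306% and 0.184% of all FPKM. The youth library stood highest and the adult library lowest. Fibrillar chains held 55.0%, 61.7% and 56.5% of the collagen FPKM in kid, youth and adult, type VI held 22.5%, 20.4% and 22.3%, and the basement membrane chains held 18.3%, 15.3% and 17.4%. FACIT chains held 2.69%, 1.60% and 2.27%. The place of type VI above the basement membrane chains turned without chain-like entries (18.7%, 16.7% and 18.2% against 21.7%, 18.2% and 20.5%). It also turned when shares were counted by recovered reads. The summed fibrillar level differed most, at 635, 984 and 565 FPKM, while the FACIT sum went from 31.0 FPKM in kid to 25.5 in youth and 22.7 in adult. COL1A1, COL1A2 and COL3A1 alone made up 42.1%, 49.0% and 44.2% of the collagen FPKM.

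**Figure D1:**
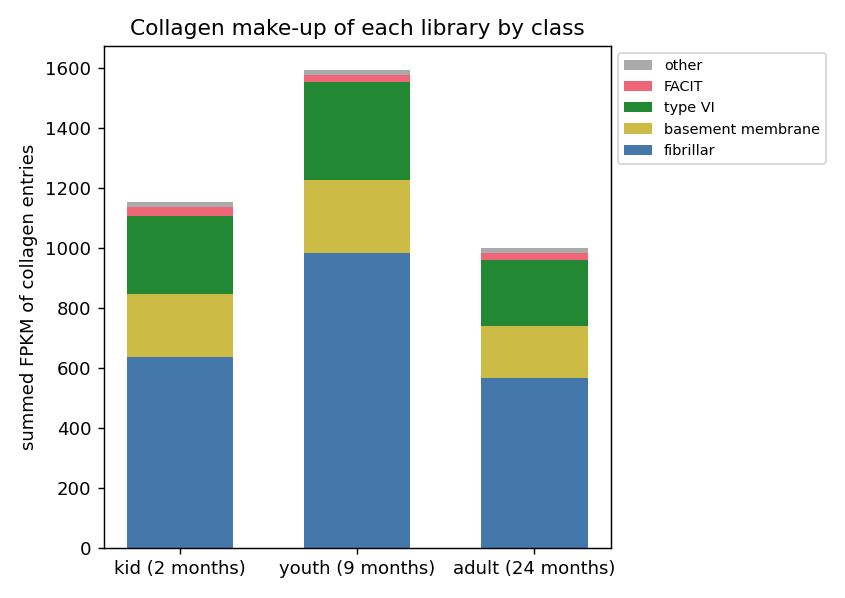
Summed FPKM of the collagen entries in each library, stacked by class, with 1 library per stage and no error bars. The youth bar reaches 1595 FPKM, against 1155 in kid and 999 in adult, and the fibrillar part accounts for 984 FPKM of it.

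Of the 51 chains, 27 averaged 1 FPKM or more, 24 were below it, and 2 of these, both chain-like, were listed at 0 throughout. Differences were taken as log2(FPKM + 1), a scale that understates the difference of low entries, and a chain was counted as apart at 1.5-fold on that scale. In youth against kid, 3 of the 27 chains were at least 1.5-fold higher (11.1%, against 1.5% of the 12121 entries above the same mean) and 0 were lower (against 3.77%). The 3 were COL3A1, COL1A1 and COL6A6. With no replicates these counts have no test. In FPKM alone 19 of the 27 chains were higher and 8 lower (35.7% and 64.3% of all entries), and by the interval of the reads 15 were higher and 6 lower (11.6% and 26.9%). The median difference of the 27 was 0.21 on the log2 scale, beside -0.08 over all entries. In adult against youth, 7 of the 27 were at least 1.5-fold lower (25.9%, against 5.45% of all entries) and 1 was higher (against 5.4%), with a median of -0.46 beside -0.02. In FPKM alone 22 were lower and 5 higher (52.7% and 47.3% of all entries), and by the interval 19 were lower and 1 was higher (27.0% and 22.3%). The 7 were COL3A1, COL1A2, COL1A1, a COL1A1-like entry, COL15A1, COL6A6 and COL14A1, and the 1 was COL12A1. In adult against kid, 3 were at least 1.5-fold lower (11.1%, against 6.64%) and 0 higher (against 2.6%), with a median of -0.20 beside -0.10. The 3 were COL14A1, COL23A1 and COL28A1. In FPKM alone 25 were lower and 2 higher (62.5% and 37.5% of all entries). The 25 and 2 became 20 and 7 with median ratio scaling of the libraries and 21 and 6 with quantile normalization. The shares of all entries lower and higher were not taken under these 2 scalings. The median over all entries was 0.001 and -0.002 there, beside -0.087 and -0.174 for the 27 chains. The interval placed 20 chains lower and 1 higher (34.6% and 16.7%). Over the 48 chains with whole reads, low ones included, the medians were 0.02, -0.15 and -0.16 in the same order. The youth library enters the first and the second comparison with opposite sign, so values particular to it appear in both.

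The order of the libraries differed between abundant and rare chains. All 11 chains with a mean of at least 25 FPKM were highest in youth and lowest in adult. Of the 16 chains with a mean between 1 and 25 FPKM, 7 were highest in youth, 7 in kid and 2 in adult. Below 1 FPKM, where reads are few, 10 of 21 chains with whole reads were highest in kid, 6 in youth and 5 in adult. No share over all entries was taken within these bands, so the counts by band describe the chains only. Among the 27 chains, youth was highest for 18 (66.7%, against 25.6% of all entries) and adult was lowest for 22 (81.5%, against 45.2%). Kid was highest for 7 (25.9%, against 44.4%) and adult for 2 (7.41%, against 30.0%), while youth was lowest for 4 (14.8%, against 37.3%) and kid for 1 (3.7%, against 17.5%). The number highest in youth was 18 under each of 4 other scalings of the libraries (29.6% to 32.3% of all entries). The number lowest in adult was 18 to 23 under them (38.0% to 51.9% of all entries).

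**Figure D2:**
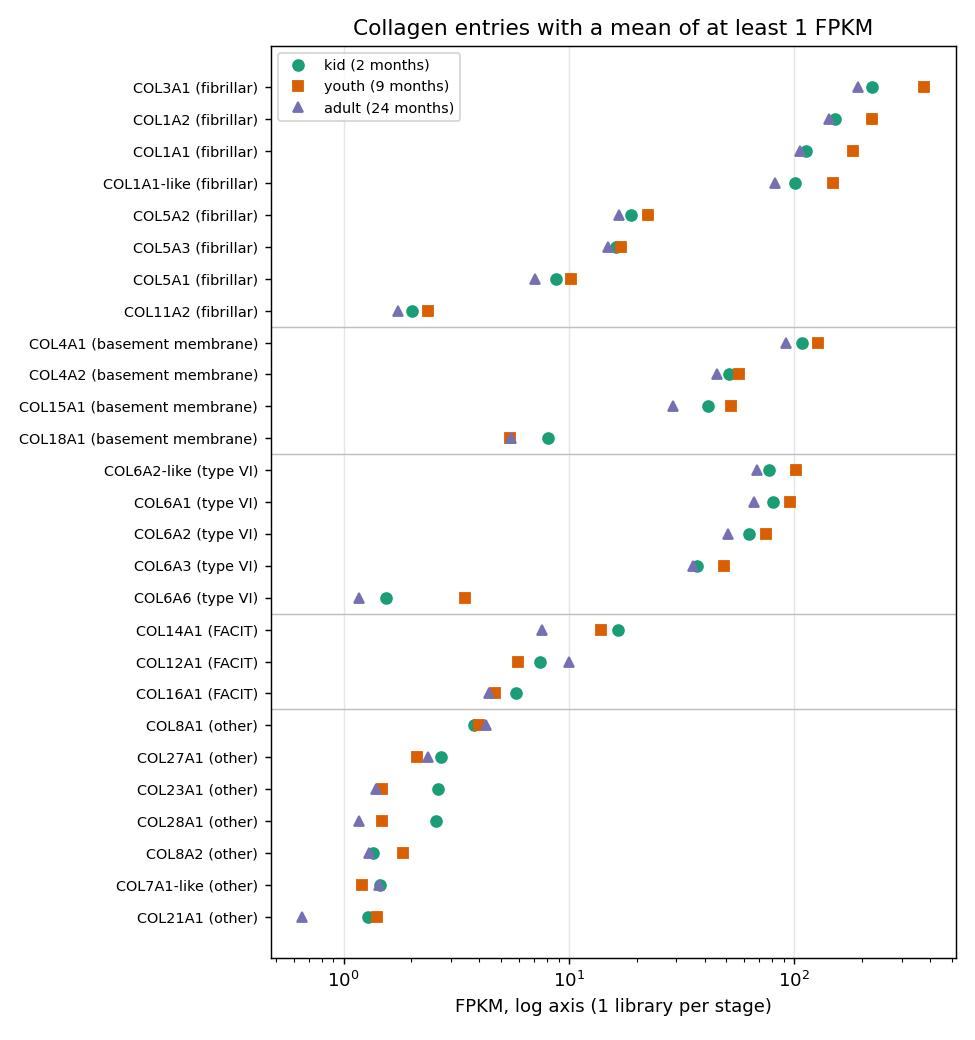
Level of each of the 27 collagen entries with a mean of at least 1 FPKM, in FPKM on a log axis, with 1 point per library and the chains grouped by class. Every chain of mean 25 FPKM or more has its youth point to the right and its adult point to the left, whereas COL14A1, COL12A1, COL16A1, COL18A1, COL23A1 and COL28A1 are among the 9 entries whose youth point is not the highest.

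Type III collagen forms thin, pliable fibrils, and its single chain COL3A1 (gene 100860938) was the most abundant collagen, with 221 FPKM in the kid library, 379 in youth and 192 in adult. The youth level was 1.71-fold that of kid (interval 1.68 to 1.74), and adult was 1.97-fold below youth (1.94 to 2.01). COL3A1 took place 101 from the top of 12121 entries in the first comparison and place 146 from the bottom in the second. The chains of type I collagen, the strong fibril of tendon and of the outer muscle sheaths, had the same order of libraries. For COL1A2 (gene 100860940) the kid, youth and adult values were 152, 221 and 143 FPKM, and for COL1A1 (gene 100860828) 113, 183 and 106 FPKM. COL1A1 was 1.62-fold higher in youth than in kid (1.58 to 1.66) and COL1A2 1.45-fold (1.42 to 1.48), so that the intervals of the 2 chains did not overlap. Adult was 1.72-fold below youth for COL1A1 (1.68 to 1.77) and 1.54-fold below for COL1A2 (1.51 to 1.58). Against kid, adult was lower by 1.06-fold for COL1A1 (1.03 to 1.09) and by 1.07-fold for COL1A2 (1.04 to 1.09), and both were 1.02-fold higher instead when the libraries were scaled by their median ratio. COL3A1 was 1.15-fold lower in adult than in kid (1.13 to 1.18).

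Type V collagen is a minor fibrillar type that starts fibrils and limits their width. Its chain COL5A2 had 18.8, 22.5 and 16.7 FPKM in kid, youth and adult, COL5A3 had 16.3, 17.1 and 14.8 FPKM, and COL5A1 had 8.74, 10.3 and 7.06 FPKM. The order was again youth, kid, adult, with a narrower span than in types I and III. With the reads of the 3 chains added, youth was 1.14-fold above kid (1.09 to 1.19) and adult 1.30-fold below youth (1.24 to 1.35). For COL5A3 alone youth and kid were within counting error (1.05-fold, 0.981 to 1.13). Per length, COL5A2 amounted to 0.124 of COL1A2 in kid, 0.102 in youth and 0.117 in adult, so its share beside type I was lowest in youth (0.0976 to 0.107, against 0.118 to 0.130 in kid).

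Types XI and II are fibrillar collagens best known from cartilage, where type XI plays the part that type V has elsewhere. COL11A2 stood at 2.01, 2.38 and 1.74 FPKM in kid, youth and adult, and adult was 1.37-fold below youth (1.10 to 1.71). COL11A1 had the opposite order, with 0.463 FPKM from 53 reads in kid, 0.204 from 22 in youth and 0.617 from 82 in adult. Youth was 2.27-fold below kid (1.36 to 3.92) and adult 3.02-fold above youth (1.87 to 5.08), while adult and kid were within counting error (1.33, 0.931 to 1.92). COL2A1, the main chain of cartilage fibrils, had 29, 14 and 12 reads, and its adult level of 0.255 FPKM was 2.81-fold below the 0.717 FPKM in kid (1.39 to 6.04). The 6 cartilage markers that could be matched summed to 5.66, 7.96 and 4.28 FPKM in kid, youth and adult. Most of this was CHAD, a leucine-rich protein of cartilage and tendon, at 4.67, 6.69 and 3.33 FPKM, while CNMD had 0.651, 1.11 and 0.56 FPKM and MATN3 had 0.325, 0.13 and 0.35 FPKM. MATN1 and HAPLN1 were listed at 0 in all 3 libraries, and ACAN, the core proteoglycan of cartilage, was at 0.00935 to 0.0402 FPKM. The part of cartilage cells in the values of COL2A1, COL11A1 and COL11A2 was not tested.

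In the basement membrane class the main chains had youth highest, while COL18A1, COL4A5 and COL4A6 had kid highest. COL4A1 (gene 102171079) had 108, 128 and 92.3 FPKM in kid, youth and adult, and its partner COL4A2 (gene 102171347) had 51.4, 56.7 and 45.6 FPKM. These chains join in the ubiquitous form of type IV collagen. With their reads added, youth was 1.17-fold above kid (1.14 to 1.2) and adult 1.36-fold below youth (1.33 to 1.40), a smaller span than in COL1A1 and COL3A1. Singly, youth was 1.186-fold above kid for COL4A1 and 1.104-fold for COL4A2, and adult was 1.385-fold and 1.245-fold below youth. COL4A1, which was close to COL1A1 in kid at a ratio of 0.955 (0.928 to 0.983), was at 0.699 of it in youth (0.681 to 0.717) and at 0.869 in adult (0.845 to 0.893). COL15A1, which ties basement membranes to nearby fibrils and is prominent around muscle fibres and capillaries, was at 41.5, 52.5 and 29.1 FPKM. Its adult level was 1.80-fold below youth (1.71 to 1.89) and 1.42-fold below kid (1.35 to 1.5). COL18A1, the related chain from which endostatin is cut, was highest in kid at 8.07 FPKM, against 5.48 in youth and 5.55 in adult. Youth was 1.47-fold below kid for COL18A1 (1.30 to 1.67), and adult and youth were within counting error (1.01-fold, 0.887 to 1.16). The ratio of COL15A1 to COL18A1 was therefore 5.14 in kid (4.72 to 5.6), 9.57 in youth (8.64 to 10.6) and 5.25 in adult (4.77 to 5.78).

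The minor type IV chains COL4A3, COL4A4, COL4A5 and COL4A6 build specialised networks found in kidney, lung and smooth muscle among other tissues, and all 4 were low. COL4A5 had 1.01, 0.933 and 0.416 FPKM in kid, youth and adult, and COL4A6 had 0.839, 0.743 and 0.412 FPKM. COL4A4 had 19, 18 and 7 reads and COL4A3 13, 13 and 6 reads in the same order. Kid and youth were close in all 4 and adult was lowest in all 4. With the reads of the 4 chains added, 228 in kid, 198 in youth and 115 in adult, adult was 2.12-fold below youth (1.68 to 2.70) and 2.30-fold below kid (1.83 to 2.91). Youth and kid were within counting error (0.921, 0.758 to 1.12). COL4A1 was 106 times as abundant per length as COL4A5 in kid (87.7 to 130), 137 times in youth (112 to 171) and 222 times in adult (168 to 300).

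Type VI collagen is needed for muscle stability, and mutations in its 3 classical chains cause muscular dystrophies in humans. COL6A1 (gene 102191085) had 80.3, 96.2 and 66.5 FPKM in kid, youth and adult, COL6A2 (gene 102191378) had 63.1, 75.2 and 50.9 FPKM, and COL6A3 (gene 102169643) had 37.2, 49.0 and 35.4 FPKM. All 3 were highest in youth and lowest in adult. Youth was above kid by 1.2-fold for COL6A1 (1.15 to 1.25), by 1.19-fold for COL6A2 (1.14 to 1.25) and by 1.32-fold for COL6A3 (1.25 to 1.38). Adult was below youth by 1.45-fold (1.39 to 1.5), 1.48-fold (1.41 to 1.55) and 1.38-fold (1.32 to 1.45) in the same order. COL6A3 in adult and kid was just within counting error (0.952, 0.905 to 1.002). The recovered reads can be a fraction of those used, which would make this interval too wide.

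COL6A6, a chain of the family that resembles COL6A3, had the widest span of the chains above 1 FPKM. It was at 1.55 FPKM from 193 reads in kid, 3.45 from 405 in youth and 1.17 from 170 in adult. Youth was 2.23-fold above kid (1.87 to 2.66) and adult 2.94-fold below youth (2.45 to 3.54). Relative to COL6A3 it was at 0.0416 in kid (0.0358 to 0.0481), 0.0704 in youth (0.0634 to 0.0780) and 0.0331 in adult (0.0282 to 0.0386). COL6A5, its neighbour in the genome, had 1, 2 and 1 reads.

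**Figure D3:**
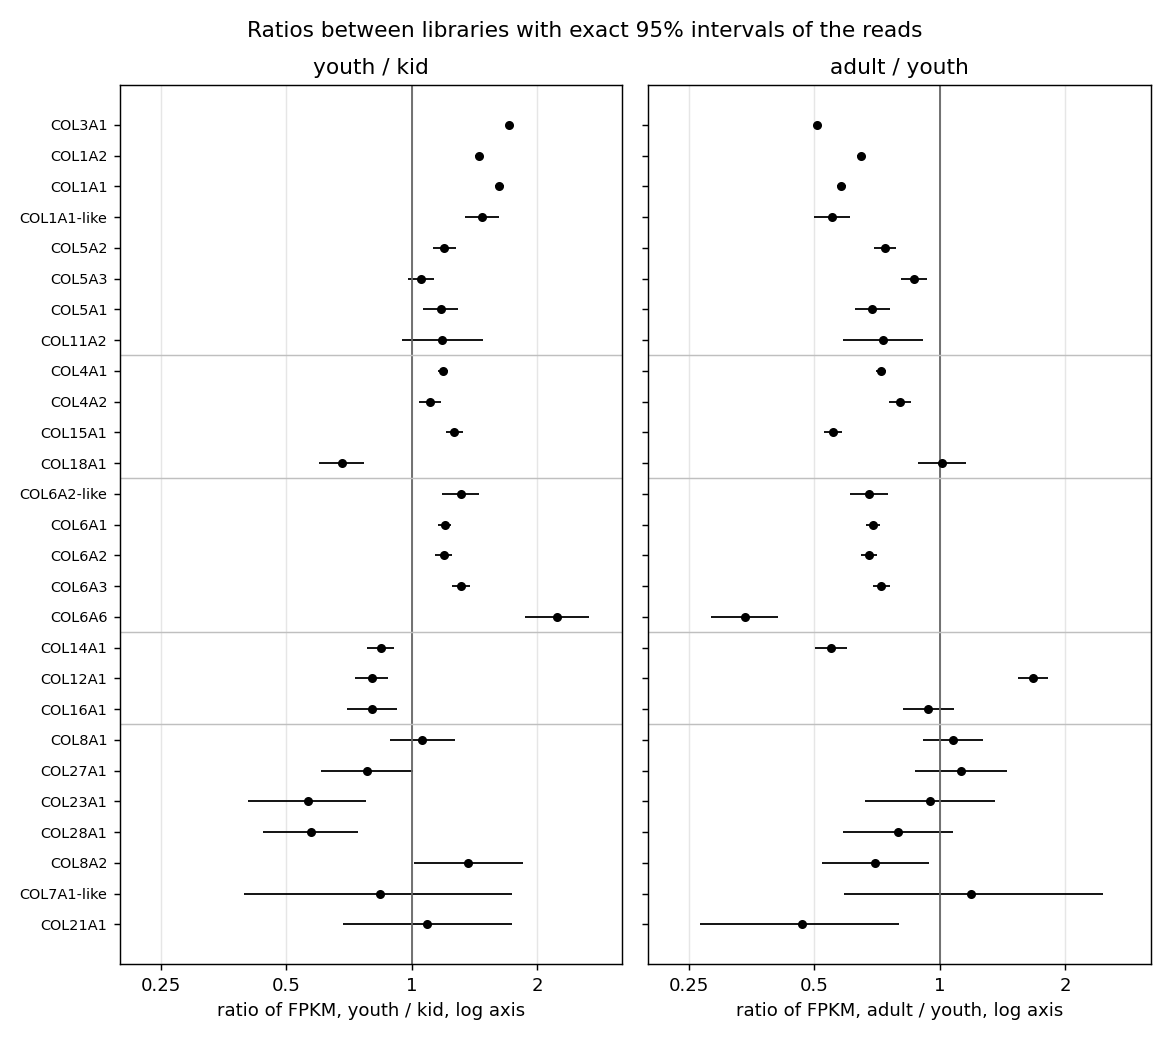
Ratios of FPKM between libraries for the 27 collagen entries, youth over kid on the left and adult over youth on the right, on log axes with exact 95% intervals of the reads as bars. Chains of the fibrillar and type VI classes lie right of 1 on the left and left of 1 on the right, with COL6A6 farthest out at 2.23 and 0.340. The fibril-forming COL27A1, grouped with the other types, lies at 0.781 and 1.12. COL12A1 is the chain whose interval lies above 1 on the right.

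None of the 3 chains above 1 FPKM in the FACIT class used here was highest in youth. COL21A1, a fibril-associated chain grouped with the other types, was highest in youth but within counting error of kid (1.09, 0.682 to 1.74). COL14A1 (gene 102178089), which binds fibrils in tendon, skin and the muscle sheaths, had 16.5, 13.9 and 7.63 FPKM in kid, youth and adult. Youth was 1.19-fold below kid (1.10 to 1.28) and adult 1.83-fold below youth (1.67 to 1.99), which placed adult 2.17-fold below kid (1.99 to 2.36). COL12A1 (gene 102188405), a close relative that bears load in tendon and muscle and whose mutations cause a myopathy in humans, was at 7.43, 5.96 and 9.97 FPKM. Youth was 1.25-fold below kid (1.14 to 1.37), and adult was 1.67-fold above youth (1.54 to 1.82) and 1.34-fold above kid (1.24 to 1.45). Per length the ratio of COL12A1 to COL14A1 was 0.450 in kid (0.417 to 0.486), 0.428 in youth (0.392 to 0.468) and 1.31 in adult (1.2 to 1.42), so the more abundant of the pair was COL14A1 in kid and youth and COL12A1 in adult. COL16A1 was at 5.85, 4.69 and 4.41 FPKM, 1.25-fold lower in youth than in kid (1.09 to 1.43). The 3 chains of type IX, a cartilage FACIT, had 22 reads in kid, 16 in youth and 22 in adult when added, and no difference was detectable at this depth.

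Markers of tendon cells were set beside COL12A1. Tenomodulin (TNMD), a defining marker of tendon cells, had 1.51, 0.25 and 5.16 FPKM in kid, youth and adult. COMP, a tendon and cartilage glycoprotein, had 0.6, 0.667 and 7.96 FPKM, and THBS4, an adhesive glycoprotein of tendon and muscle, had 59.9, 55.0 and 83.9 FPKM. The 6 tendon markers that could be matched summed to 84.2, 77.5 and 120.5 FPKM, with none at 0, and of the 5 above a mean of 1 FPKM 4 were at least 1.5-fold higher in adult than in youth (5.4% of all entries were) while KERA was lower (5.45%). FMOD and KERA of this list are also fibril-binding proteoglycans. The sum, most of it THBS4, had the order adult, kid, youth that COL12A1, COL11A1 and COL22A1 also had. Adult and kid were within counting error for COL11A1 (1.33, 0.931 to 1.92) and COL22A1 (1.32, 0.913 to 1.91). Of the list, TNMD, THBS4 and FMOD had this order, while COMP had kid lowest, MKX kid highest and KERA youth highest. The part of tendon cells in the values of these chains was not tested.

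The remaining 17 chains belong to other types and were all below 5 FPKM. COL8A1, a short-chain network collagen of vessel walls, was at 3.77, 4.0 and 4.30 FPKM in kid, youth and adult and within counting error in all 3 comparisons. COL8A2 was at 1.35, 1.84 and 1.29 FPKM, 1.37-fold above kid in youth (1.01 to 1.85). The fibril-forming COL27A1 was at 2.71, 2.12 and 2.38 FPKM and within counting error in all 3 comparisons. COL21A1 was at 1.29 and 1.40 FPKM in kid and youth and at 0.653 in adult, 2.14-fold below youth from 23 against 40 reads (1.25 to 3.75).

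COL28A1 and COL23A1 stood highest in kid. COL28A1, which in mouse is found around glia of peripheral nerves, had 2.58, 1.48 and 1.17 FPKM in kid, youth and adult. Youth was 1.74-fold below kid (1.34 to 2.27) and adult 2.20-fold below kid (1.69 to 2.87). COL23A1, a collagen that spans the cell membrane, was at 2.62, 1.47 and 1.39 FPKM, with youth 1.78-fold (1.29 to 2.47) and adult 1.88-fold (1.38 to 2.57) below kid. COL17A1, a chain of the junction between epidermis and dermis, had 16, 5 and 5 reads, with youth 3.02-fold below kid (1.06 to 10.5). Adult and youth were within counting error for COL28A1 (0.793, 0.587 to 1.07), COL23A1 (0.946, 0.661 to 1.36) and COL17A1 (0.811, 0.187 to 3.52). Markers of Schwann cells, the glia of muscle nerves, also had kid highest and adult lowest in their sum. The sum was 209.7, 123 and 81.4 FPKM in kid, youth and adult over 6 matched markers with none at 0. Of the 5 above a mean of 1 FPKM, 5 were lower in youth than in kid (64.3% of all entries were) and 2 higher in adult than in youth (47.3% of all entries were). Their part in the values of COL28A1 was not tested.

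COL22A1, a collagen of the junction between muscle and tendon, had 0.651, 0.311 and 0.856 FPKM in kid, youth and adult, from 51, 23 and 78 reads. Youth was 2.09-fold below kid (1.25 to 3.58) and adult 2.75-fold above youth (1.71 to 4.59). COL13A1, which helps to mature the nerve-muscle synapse, had 12, 6 and 17 reads, and COL25A1, which muscle needs for its innervation, had 7, 9 and 14 reads. Every interval of these 2 chains included a ratio of 1, so no difference was detectable at this depth. The same held for COL7A1 with 57, 58 and 59 reads, COL24A1 with 22, 27 and 26 and COL20A1 with 19, 17 and 20. COL19A1 had 7, 3 and 2 reads and COL26A1 had 1, 1 and 2. COL10A1, a marker of cartilage growth zones, was listed at 0 in kid and youth and at 0.0179 FPKM in adult. A gene of 1 kb at 3 reads would stand at 0.190, 0.201 and 0.163 FPKM in the 3 libraries.

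Chains that assemble with each other kept some ratios and not others. The ratio of COL6A1 to COL6A2 was 1.27 in kid (1.22 to 1.33), 1.28 in youth (1.23 to 1.33) and 1.31 in adult (1.25 to 1.37), with overlapping intervals. The ratio of COL5A1 to COL5A2 was 0.464, 0.455 and 0.424, also with overlapping intervals. In type I collagen, whose usual molecule holds more alpha-1 than alpha-2 chains, COL1A1 had the lower listed level in each library. It was at 0.741 of COL1A2 in kid (0.722 to 0.761), 0.830 in youth (0.812 to 0.848) and 0.744 in adult (0.725 to 0.763). The youth interval lay above both others. How reads shared with the COL1A1-like entry were counted is not stated, so the level of COL1A1 beside COL1A2 is uncertain. The ratio of COL3A1 to COL1A2 was 1.45, 1.72 and 1.34 in the same order, again highest in youth (1.68 to 1.75). COL4A1 stood at 2.10, 2.25 and 2.03 times COL4A2, and COL6A1 at 2.16, 1.97 and 1.88 times COL6A3. These levels rest on the lengths behind the FPKM values, so a ratio between chains can carry an error common to all 3 libraries. The recovered lengths were 2426 bases for COL4A2, 5431 for COL4A1 and 4898 for COL6A3. These are the smallest that return the values and can be a fraction of the length used, so they do not show such an error. The changes of a ratio between libraries do not depend on the lengths.

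**Figure D4:**
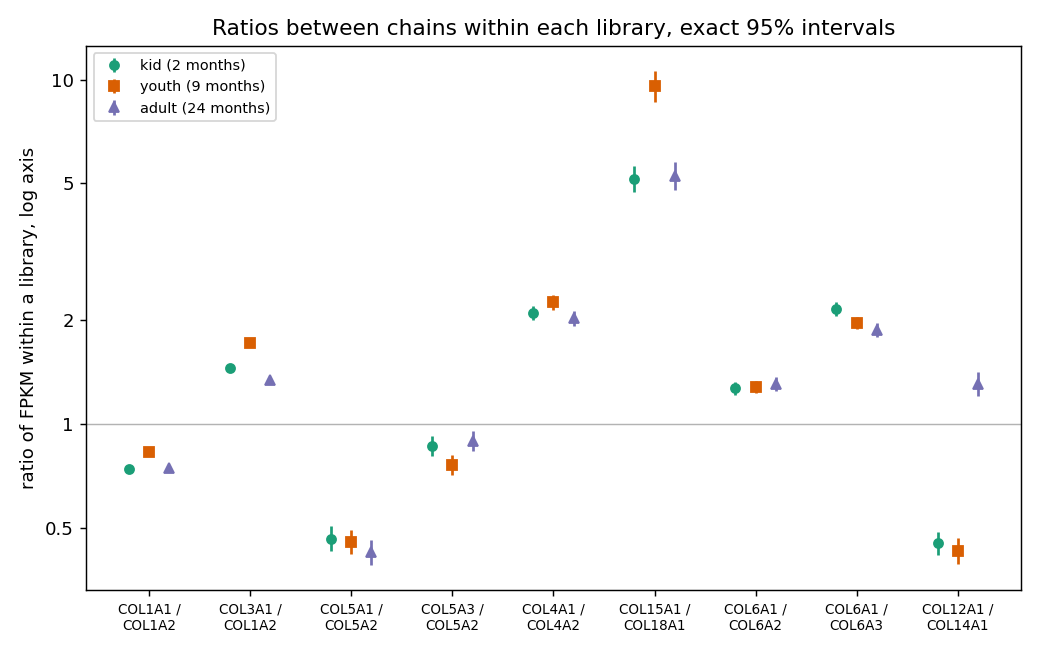
Ratios of FPKM between pairs of collagen chains within each library, on a log axis, with exact 95% intervals of the reads as bars and 1 point per library. COL6A1 over COL6A2 stays between 1.27 and 1.31, COL15A1 over COL18A1 is 9.57 in youth against 5.14 and 5.25, and COL12A1 over COL14A1 is 1.31 in adult against 0.450 and 0.428.

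Of the 7 chain-like entries, 2 were abundant and both had a short recovered length, which can be a fraction of the length used. The alpha-1(I)-like entry (gene 102188530) had a recovered length of 462 bases against 5353 for COL1A1, and had 101, 149 and 81.9 FPKM in kid, youth and adult. The alpha-2(VI)-like entry (gene 102175251), with a recovered length of 533 bases against 3586 for COL6A2, stood at 77.6, 102 and 68.7 FPKM. Both had the order of libraries of the chain they resemble. The ratio of the alpha-1(I)-like entry to COL1A1 was 0.893 in kid (0.827 to 0.962), 0.811 in youth (0.761 to 0.864) and 0.770 in adult (0.712 to 0.832). The sources used here do not state how reads shared by such entries and the full chains were counted, so the values of COL1A1, COL6A2 and these entries are uncertain in that respect. Without the chain-like entries, 3 of 24 chains were at least 1.5-fold higher in youth than in kid (against 1.5% of all entries) and 6 of 24 lower in adult than in youth (against 5.45%). The alpha-1(III)-like entry had 16, 7 and 14 reads, and the alpha-1(XII)-like entry 7, 5 and 3. A second alpha-1(I)-like entry and an alpha-1(XVI)-like entry were listed at 0 throughout. The alpha-1(VII)-like entry (gene 102175676), at 1.44, 1.21 and 1.44 FPKM, carries the number of the zinc finger gene ZNF74 in the reference gene table, so its place among the collagens is doubtful.

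In the goat assembly ARS1.2, 6 pairs of these genes lie next to each other with no gene between them: COL4A1 with COL4A2, COL4A3 with COL4A4, COL6A1 with COL6A2, COL6A5 with COL6A6, COL3A1 with COL5A2, and COL9A1 with COL19A1. In each of the first 3 pairs both neighbours had youth highest and adult lowest, the minor type IV pair from 19 reads or fewer per library. COL3A1 and its neighbour COL5A2 also had youth highest and adult lowest, but by 1.71-fold and 1.2-fold over kid, with intervals that did not overlap (1.68 to 1.74 and 1.13 to 1.28).

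Genes that make and modify collagen were compared through lists of the pathway. Each count of higher or lower list members below is to be read against all entries, of which 35.7% were higher and 64.3% lower in youth than in kid (median -0.08), and 47.3% higher and 52.7% lower in adult than in youth (median -0.02). Of 20 matched enzymes and chaperones of collagen synthesis, 12 were higher and 8 lower in youth than in kid, 8 and 2 of them beyond the interval, with 0 at least 1.5-fold apart and a median of 0.14 on the log2 scale. In adult against youth 17 of 20 were lower, 4 of them at least 1.5-fold (against 5.45% of all entries), with a median of -0.12. SERPINH1, the chaperone HSP47 that binds collagen in the endoplasmic reticulum, was at 48.9, 67.2 and 40.3 FPKM in kid, youth and adult. P4HA1, a catalytic subunit of prolyl 4-hydroxylase, was at 19.1, 28.7 and 16.8 FPKM, and P4HA3, a relative of it, at 9.80, 13.2 and 4.72 FPKM. These had the order of the abundant chains, and adult was 1.67-fold (1.53 to 1.81), 1.7-fold (1.57 to 1.86) and 2.80-fold (2.40 to 3.26) below youth. P4HB, the most abundant of the list, differed little, at 66.8, 74.5 and 70.4 FPKM.

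Of 12 genes of procollagen processing and fibril assembly above 1 FPKM, 9 were higher in youth than in kid and 11 lower in adult than in youth, with medians of 0.22 and -0.23. SPARC, a collagen-binding protein of the matrix, was at 282, 411 and 260 FPKM, 1.46-fold higher in youth than in kid (1.42 to 1.5) and, in adult, 1.58-fold below youth (1.54 to 1.62). ADAMTS2, which cuts the amino propeptide from fibrillar collagens, was at 5.51, 8.49 and 4.90 FPKM. PCOLCE2, an enhancer of the cut at the other end, was at 27, 26.6 and 15.6 FPKM, with kid and youth within counting error. In the list of collagen breakdown the median was 0.01 in youth against kid and -0.30 in adult against youth, over 10 genes. The collagenases MMP1, MMP8 and MMP13 were listed at 0 in all 3 libraries. MMP14, the membrane-bound collagenase, was at 15.4, 10.4 and 8.12 FPKM, and the inhibitor TIMP3 at 100.3, 102.5 and 65.5 FPKM. Of 7 collagen receptors, 2 were higher in youth than in kid and 6 lower in adult than in youth. ADGRG1, a receptor of type III collagen in the brain, was at 12.2, 16 and 8.10 FPKM, and the integrin chain ITGB1 at 92.3, 93.5 and 78.1 FPKM.

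Other genes of the matrix did not all have youth highest. Of 11 small leucine-rich proteoglycans, which bind fibrils, 6 were higher and 5 lower in youth than in kid (median 0.05), and 9 were lower in adult than in youth (median -0.36). Decorin (DCN), the most abundant of them, was at 416, 370 and 342 FPKM, 1.13-fold lower in youth than in kid (1.10 to 1.16), where COL1A1 and COL3A1 were higher. FMOD was at 10.9, 8.61 and 15.5 FPKM, and CHAD, given above among the cartilage markers, is also in this list. Of 11 basement membrane partners, 6 were higher in youth than in kid (median 0.03) and all 11 were lower in adult than in youth (median -0.20), with SPARCL1, the most abundant, at 146.9, 133 and 131 FPKM and nidogen 1 (NID1) at 42.6, 45.7 and 30.5 FPKM. PXDN, the peroxidase that crosslinks type IV collagen, had 14, 17.4 and 12.1 FPKM, the order of COL4A1 and COL4A2, and the laminin chain LAMB1 had 33, 30.5 and 22.4 FPKM. In the axis of TGF-beta, a main inducer of collagen genes, 12 of 16 genes were lower in youth than in kid (median -0.13), near the 64.3% of all entries, and 13 lower in adult than in youth (median -0.35). LTBP4, the most abundant of the list and a binding protein of latent TGF-beta, had 63.4, 63.6 and 66.2 FPKM. SMAD3, a signal carrier of this axis, was at 20.3, 18.4 and 9.72 FPKM. CCN2, a target of it, had 24.1, 16.2 and 13.3 FPKM.

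**Figure D5:**
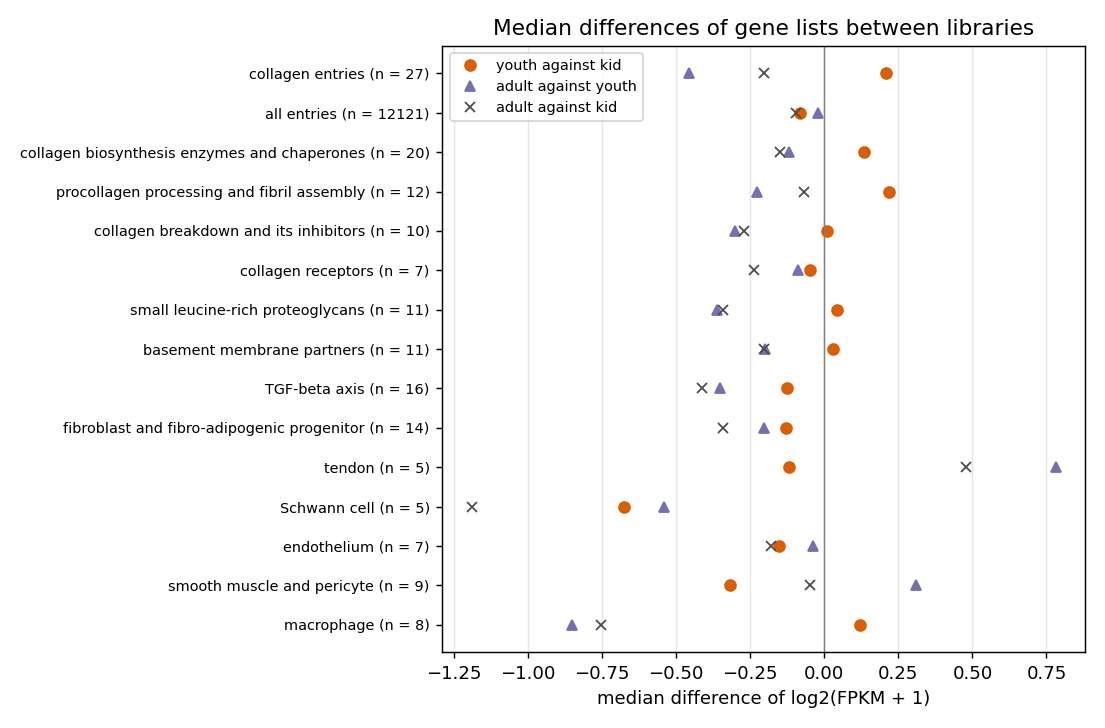
Median difference of log2(FPKM + 1) for the collagen entries, all entries and 13 gene lists, over members with a mean of at least 1 FPKM, with 1 symbol per comparison and no error bars. The collagen entries stand at 0.21 for youth against kid and at -0.46 for adult against youth, and the fibroblast list stands at -0.13 and -0.20.

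Markers of the cells that make collagen were set beside these values. Of 14 markers of fibroblasts and fibro-adipogenic progenitors, all above 1 FPKM, 10 were lower in youth than in kid (median -0.13), near the 64.3% of all entries, and 12 lower in adult than in youth (median -0.20, against 52.7%), and none was at 0. They summed to 991, 901 and 785 FPKM in kid, youth and adult. The actin-binding GSN, the most abundant of them, had 492, 442 and 390 FPKM. PDGFRA, which defines the progenitors, was at 13.6, 11 and 9.82 FPKM, and FAP, a marker of activated fibroblasts, at 8.35, 9.47 and 4.89 FPKM. Endothelial markers summed to 208, 182 and 180 FPKM over 7 genes, with 6 of 7 lower in youth than in kid. Of 9 smooth muscle and pericyte markers all 9 were lower in youth than in kid and 7 higher in adult than in youth, and their sum of 4589, 4347 and 4620 FPKM was mostly desmin (DES), which muscle fibres also make. Adipocyte markers summed to 125.8, 63.8 and 80.4 FPKM over 7 genes, with 5 of the 6 above 1 FPKM lower in youth than in kid. Of 8 macrophage markers, all 8 were lower in adult than in youth (median -0.85), and they summed to 71.6, 79.6 and 39.8 FPKM. The part of these cell types in the collagen values was not tested.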

How the data were processed

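FPKM values for each stage come from 1 table deposited by the authors. Per the submitters' processing notes, the tools were FastQC, TopHat2 and DESeq, listed with no versions and no roles. The sources used here do not give genome build, annotation, counting method or the handling of reads that match several entries. Library totals, reads and entry lengths were recovered as the smallest whole numbers that return the FPKM values. This resolved 16054 entries detected in 3 libraries and 1157 detected in 2, and gave 95.3%, 94.9% and 96.3% of the totals as reads. Where reads and length share a factor, fewer reads and a shorter length are returned and the interval is wider. Such an entry has too small a weight where reads of several chains are added, so ratios of added reads are approximate. The steps were tested on simulated reads. Ratios carry exact Clopper-Pearson intervals (95%, scipy 1.17.1). Differences used log2(FPKM + 1) over 12121 entries with a mean of at least 1 FPKM. Python 3.11.15 was used. Gene names came from product text for collagens and from a RefSeq gene table of assembly ARS1.2 for 42 of 51 collagen gene numbers and all lists. No sequence was used. Members and lists were chosen with earlier results of these data known. Chains with at least 5 FPKM in 1 library are given in full. Genes named from a list are drawn from its most abundant member and the 3 with the largest differences, and not every such gene is reported here. MMP1, MMP8, MMP13, ACAN, MATN1, MATN3, HAPLN1 and PDGFRA were named for their role after their values were seen.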

Additional observations from a re-analysis of the deposited data

How the results depend on the processing

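The median difference of the collagen chains kept its sign under all 13 alternatives in each comparison. It was 0.011 in youth against kid and -0.127 in adult against youth with no filter on low values. The 3 chains at least 1.5-fold higher in youth than in kid became 5 with median ratio scaling (against 2.21% of all entries). The count was also 5 with quantile normalization (against 2.52%) and 0 at 2-fold (against 0.421%). With a pseudocount of 0.1, 2 chains were lower (against 7.18%). In adult against youth, the 7 lower chains became 1 at 2-fold (against 1.07% of all entries). They became 4, with a median of -0.311, by the literal text of the rule (against 5.45%). That alternative was chosen after seeing the data, leaves out COL3A1, COL1A2 and COL15A1 and takes in COL4A3BP. The 1 higher chain became 0 with a pseudocount of 5 (against 2.2%) and at 2-fold (against 1.01%). In adult against kid, the 3 lower chains became 1 at 2-fold (against 1.22% of all entries) and 1 with a pseudocount of 5 (against 2.04%). The count was also 1 with quantile normalization (against 4.26%), and 1 of 17 chains above a mean of 5 FPKM (against 5.71%). Over all entries, the 1.5% higher and 3.77% lower in youth against kid became 2.21% and 2.55% with median ratio scaling, and the 2.6% and 6.64% in adult against kid became 4.33% and 4.53%. Of 276 rescaled single ratios 2 turned, COL1A1 (1.021) and COL1A2 (1.016) in adult against kid with median ratio scaling. Shares of collagen counted by recovered reads were 59.6%, 66.6% and 61.6% (fibrillar), 19.4%, 16.2% and 18.1% (basement membrane), 15.6%, 13.9% and 15.3% (type VI) and 4.08%, 2.41% and 3.80% (FACIT) in kid, youth and adult. An entry whose reads and length share a factor is undercounted in these shares, so they are approximate. Without chain-like entries the shares of collagen FPKM were 62.2% and 57.0% in youth and adult (fibrillar), and in kid, youth and adult 21.7%, 18.2% and 20.5% (basement membrane), 18.7%, 16.7% and 18.2% (type VI) and 3.11%, 1.86% and 2.65% (FACIT). No paired analysis was possible because each stage had 1 library. Without replicates, differences between animals of one age cannot be told apart from differences between stages.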
